A study of Mus musculus with 6 samples.

Results

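The protein kinase C genes are 7 of the 20882 gene columns that were measured in live CD45+ cells of mouse lung: Prkca, Prkcb, Prkcd, Prkce, Prkch, Prkcq and Prkcz. They were taken by name. The family was chosen by the T cell level of Prkca, which was higher after agonist, so that value is given below as a description and supports nothing. All mice carried a humanized PD-1, were 6 to 8 weeks old and received either an isotype antibody or a PD-1 agonist, in a study of neutrophilic asthma. The submitters gave 3 tables for each treatment, and the labels state that cells were mixed by cell hashing, which marks each animal with a tagged antibody. Between 2373 and 2736 cell barcodes recurred in any pair of tables from the same treatment, which is 35.9% to 42.5% of whichever table was smaller. Pairs across treatments had 3 to 13 in common. Each treatment was therefore handled as 1 sample, called a library here, and no test between treatments was possible.

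Protein kinases C are serine and threonine kinases. The conventional members, α (Prkca) and β (Prkcb), are switched on by diacylglycerol together with calcium. The calcium-independent members, δ (Prkcd), ε (Prkce), η (Prkch) and θ (Prkcq), need diacylglycerol but not calcium, and the atypical member ζ (Prkcz) needs neither. Diacylglycerol is made by phospholipase C below antigen receptors, and protein kinase C θ in T cells and β in B cells are known for passing that signal on to NF-κB.

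After the authors' cell filter and doublet removal, 10299 isotype and 11272 agonist cells remained. Clusters were named from marker genes and every class name means cells like that type. T cells numbered 2304 (22.4% of cells) with isotype and 2194 (19.5%) with agonist, with a median of 2852 and 2474 counts per cell by the authors' totals. All 10 general T cell markers were raised in 9 of the 11 T cell clusters, against 8 in a cluster led by Pxdc1 and 7 in a cluster with NK receptors. Genes of the gamma-delta T cell receptor marked both of these clusters: Trdc, Tcrg-C1, Tcrg-C2 and Tcrg-C4 were among the leading genes of the NK receptor cluster, and Tcrg-C1 among those of the Pxdc1 cluster. Clusters with markers of more than 1 type held 2.26% of isotype and 2.94% of agonist cells, unnamed clusters held 3.69% and 2.28%, and both were left out. None of the 7 genes, nor the other pathway genes named below, was used to build the clusters. Levels are in CPM, a gene's counts relative to all counts of its class in that library, with exact 95% Poisson intervals, which cover counting error only and not differences between mice. Fewer transcripts per cell and fewer transcribing cells cannot be told apart in a summed level.

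The 7 genes lie on 7 chromosomes of the mm10 assembly (GRCm38), all as protein-coding genes. Prkca spans chr11:107933387-108343928 on the minus strand, Prkcb chr7:122288751-122634402 on the plus strand, Prkcd chr14:30595354-30626210 on the minus strand and Prkce chr17:86167785-86657919 on the plus strand. Prkch spans chr12:73584796-73778185 and Prkcq chr2:11172108-11301222, both on the plus strand, and Prkcz spans chr4:155260129-155361361 on the minus strand. Of 31-base stretches in the longest transcript, 23.1% of those of Prkcz also occur in the pseudogene Prkcz2 and 10.7% of those of Prkcq occur in other genes, against at most 0.286% for the other five. Prkcz values are therefore uncertain. Small annotated features that are columns of their own lie within Prkcb (7), Prkce (1) and Prkcq (3, of which 1 is on the opposite strand), and how shared reads were divided is unknown here. Every value above 0 of the 7 genes was a whole number of counts.

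The RefSeq promoter table (GRCm38.p6) matched 5 of the 7 genes. The bases before the first annotated exon are shown for Prkca and Prkcd, because these members had opposite patterns over the leukocyte classes. Capitals mark the GC box letters GGGCGG read on either strand, and no matches overlapped. The Prkca stretch is chr11:108343929-108344138 and the Prkcd stretch chr14:30626211-30626458, both on the minus strand and written 5′ to 3′.
Prkca: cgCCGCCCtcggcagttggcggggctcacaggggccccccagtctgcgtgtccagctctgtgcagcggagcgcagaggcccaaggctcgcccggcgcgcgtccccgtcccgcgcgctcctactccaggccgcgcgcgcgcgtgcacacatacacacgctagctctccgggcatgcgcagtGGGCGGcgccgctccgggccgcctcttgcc
Prkcd: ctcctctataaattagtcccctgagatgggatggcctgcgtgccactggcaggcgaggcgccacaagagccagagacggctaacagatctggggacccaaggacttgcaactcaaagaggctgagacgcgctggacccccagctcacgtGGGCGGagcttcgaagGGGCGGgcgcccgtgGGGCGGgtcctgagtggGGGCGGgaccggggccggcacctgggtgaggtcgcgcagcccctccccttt
The Prkca stretch held 2 GC boxes and the Prkcd stretch 4, which are all those of their 300-base windows around the start, and 35.7% of the 32851 promoter windows of 300 bases in the table hold at least 1. The ETS letters CCGGAAG (8.86% of windows), the PU.1-like letters GAGGAAGT (3.2%) and the RUNX letters TGTGGT (16.8%), each searched on both strands, were not found in either window. Prkcd has a second promoter entry, chr14:30610261-30610560, which is not shown. Its 250 bases before the first annotated exon held 0 GC boxes. A match of letters is a description and not a binding site.

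The members differed in their distribution over the 28 leukocyte classes. For most of them that distribution was alike in both libraries, and least so for Prkce and Prkcz. Across classes, the Pearson correlation of log2(CPM + 10) between libraries was 0.98 for Prkca, 0.90 for Prkcb, 0.99 for Prkcd, 0.78 for Prkce, 0.96 for Prkch, 0.99 for Prkcq and 0.73 for Prkcz (28 classes each, which share the depth of their library). Prkce and Prkcz, the least alike, had the fewest counts over all cells kept. Prkca, with 904 isotype and 1150 agonist counts, was close to Prkce, with 883 and 958. Why the correlations differ was not tested.

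**Figure D1:**
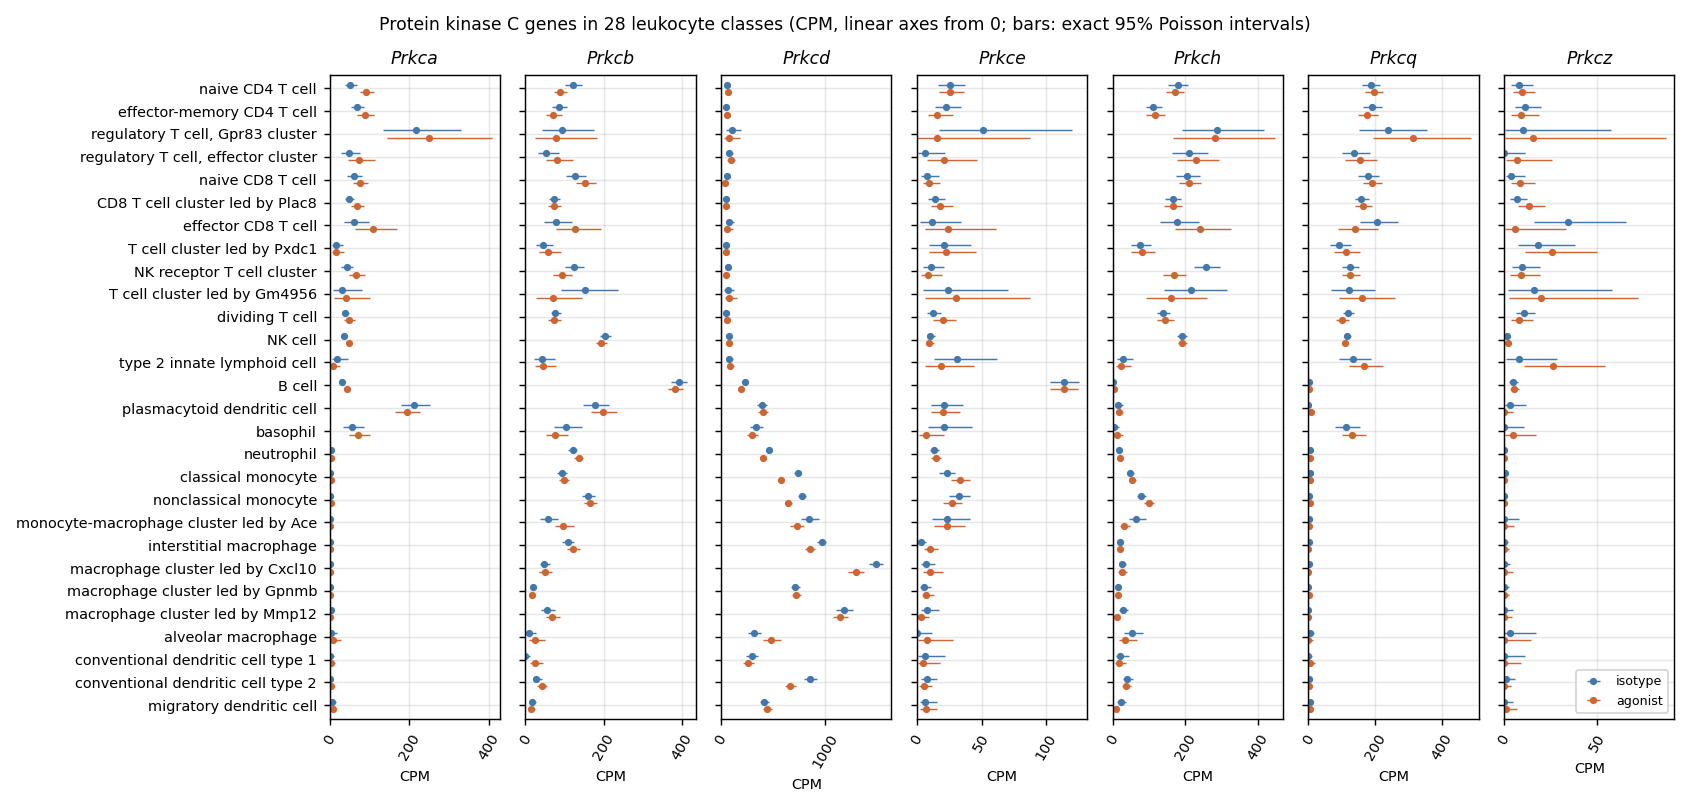
Level of each protein kinase C gene in 28 leukocyte classes, in CPM on linear axes that start at 0 and differ between genes, with isotype in blue, agonist in orange and exact 95% Poisson intervals as bars. Prkcd is high in macrophages and monocytes, Prkcb and Prkce are highest in B cells, and Prkch and Prkcq are high in T and NK cells.

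Of the conventional members, Prkca was mostly a gene of lymphoid cells, plasmacytoid dendritic cells and basophils. Its highest levels were in a small cluster of regulatory T cells led by Gpr83, at 216 CPM with isotype and 251 CPM with agonist, and in plasmacytoid dendritic cells, the main makers of type I interferon, at 213 and 193 CPM. These 2 classes did not differ from each other beyond their intervals, and each lay above 25 of the 26 other classes in both libraries. The exception was effector CD8 T cells, at 61.6 and 108 CPM. Prkca was detected in 58.9% of isotype and 53.3% of agonist plasmacytoid dendritic cells, but the regulatory T cluster holds only 45 and 30 cells. The other T cell clusters, basophils, NK cells and B cells followed, with means over both libraries between 84.8 and 35.9 CPM, and the Pxdc1 T cell cluster (15.8 and 16 CPM) and type 2 innate lymphoid cells (19.5 and 7.5 CPM) were lower. In interstitial macrophages Prkca was near the detection floor, with 1 count in each library.

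Prkcb, the B cell receptor isoform, was highest in B cells at 394 CPM (95% interval 374 to 415) with isotype and 383 CPM (364 to 403) with agonist. B cells stood above all 27 other classes in both libraries. NK cells (204 and 194 CPM), plasmacytoid dendritic cells (178 and 199 CPM) and nonclassical monocytes, which patrol vessels (161 and 166 CPM), came next and could not be ordered among themselves. Migratory dendritic cells were among the lowest, at 15.6 and 14.4 CPM.

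Prkcd, an isoform known in B cell tolerance and in macrophage and neutrophil responses, was a myeloid gene in these cells. Its level was 1492 CPM with isotype and 1295 CPM with agonist in the macrophage cluster led by Cxcl10, a chemokine gene induced by interferon. The macrophage cluster led by Mmp12 followed at 1186 and 1146 CPM, not apart from the first in both libraries, and interstitial macrophages at 967 and 854 CPM. Neutrophils held 460 and 405 CPM, B cells 226 and 196 CPM, and every T cell cluster lay below 103 CPM in both libraries. The Pxdc1 T cell cluster had the lowest mean, at 44.9 and 44.7 CPM, but was not apart from most other T cell clusters.

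Prkce was highest in B cells at 114 CPM (103 to 125) with isotype and 113 CPM (103 to 125) with agonist. B cells lay above 26 of the 27 other classes in both libraries. The exception was the small Gpr83 regulatory T cluster, whose interval is wide. Nonclassical and classical monocytes held 32.2 and 22.9 CPM with isotype and 26.8 and 33.2 CPM with agonist, and 11 classes had a mean below 10 CPM.

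Prkch was high in NK cells and in 10 of the 11 T cell clusters, which had a mean of at least 113.7 CPM, and nearly at 0 in B cells. The Pxdc1 T cell cluster was lower, at 73.9 and 79.8 CPM. T cells as a whole had 167 CPM (158 to 176) with isotype and 166 CPM (157 to 177) with agonist, and NK cells had 190 and 192 CPM. In B cells 0.275% of isotype and 0.655% of agonist cells had a count of Prkch, against 39.1% and 34% of T cells, and B cells serve here as the level of free RNA (median depth 1613 and 1476 counts summed over the genes). With every cell thinned to 1000 counts the shares were 0.123% and 0.489% in B cells and 15.7% and 15.4% in T cells. Nonclassical monocytes had the highest level among myeloid cells, at 78.2 and 100.2 CPM. With isotype their interval (66.8 to 91.1) overlapped that of the monocyte and macrophage cluster led by Ace (65.2 CPM, 44.3 to 92.6). It also overlapped that of alveolar macrophages (52.8 CPM, 30.7 to 84.5). With agonist both of these were lower, at 31.5 and 34.8 CPM, and their intervals did not overlap that of nonclassical monocytes.

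Prkcq, the isoform of the T cell synapse, split the classes into 2 sets. All 11 T cell clusters, NK cells, basophils and type 2 innate lymphoid cells had a mean of at least 102 CPM, and the other 14 classes had at most 5.6 CPM. The lowest class of the first set, the Pxdc1 T cell cluster (92.4 and 112 CPM), lay above the next class, neutrophils (5.2 and 6 CPM), in both libraries. Naive CD4 T cells had 186 CPM with isotype and 195 CPM with agonist, type 2 innate lymphoid cells 133 and 166 CPM and basophils 112 and 131 CPM.

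Prkcz was sparse, with 109 isotype and 112 agonist counts over all cells kept, and its classes could mostly not be ordered. The highest mean was in the Pxdc1 T cell cluster, at 18.5 CPM (7.43 to 38.1) with isotype and 25.5 CPM (11 to 50.3) with agonist, from 7 and 8 counts. No count was seen in neutrophils or nonclassical monocytes in either library. With 1953 isotype neutrophils, a count of 0 allows a share of up to 0.154% of cells with a count, taken as 3 counts over the number of cells.

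Some members ran together over the classes and others did not. Over the 56 class levels (28 classes in 2 libraries), Prkcd ran opposite to Prkcq, with a Pearson correlation of -0.90, and opposite to Prkca, at -0.71, whereas Prkcq ran with Prkch at 0.74. Prkcb and Prkce, both highest in B cells, ran with each other at 0.60 and had correlations between -0.23 and 0.22 with Prkcd, Prkch and Prkcq. Among the genes most like each member, of 6748 compared genes, were Gpr174, S1pr4 and Capn7 for Prkca (0.88, 0.87 and 0.85) and Mef2d and Zfp740 for Prkcb (0.74 each). For Prkcd they were Pirb, Spi1 and Ctsz (0.96, 0.94 and 0.94), of which Spi1 encodes the myeloid factor PU.1. For Prkcq they included Skap1 and Tnik (0.98 and 0.97), of which Skap1 encodes an adaptor protein of T cells. Prkch was most like Ms4a4b, Cd247 and Sh2d1a (0.87, 0.87 and 0.86), and Cd247 encodes the ζ chain of that receptor. Prkce was most like Heg1, Ralgps2 and Dgkd (0.71, 0.69 and 0.67), and Prkcz like Il27ra, Nlrc3 and Xlr4b (0.82 each). The 56 points share libraries and depth, and the correlations are descriptions.

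In T cells, Prkca had 406 counts with isotype (50.2 CPM, 45.4 to 55.3) and 482 counts with agonist (72.9 CPM, 66.5 to 79.7). The log2 ratio of agonist over isotype was 0.54 (95% Clopper-Pearson interval of the counts 0.35 to 0.73), and this is the value that chose the family. Across all 11151 genes with at least 50 counts, 6.35% had a log2 ratio above 0.5 and 4.19% one below -0.5, while 11.1% had an interval above 0 and 11% one below 0. By single table the Prkca level was 60, 48.9 and 44 CPM with isotype and 67.1, 75.6 and 74.6 CPM with agonist. The 3 isotype tables all lay below the 3 agonist tables, but the interval of the first isotype table (52.9 to 67.9) overlapped those of all 3 agonist tables (58.7 to 76.5, 66.5 to 85.6 and 64.8 to 85.5), and the tables of a treatment share cells and are not replicates. No single cell held more than 1.25% of the Prkca counts of a library. A count of Prkca was seen in 15.4% of isotype and 17.7% of agonist T cells, and in 5.42% and 7.96% with cells thinned to 1000 counts. In neutrophils, where Prkca is near 0, the shares were 0.41% and 0.625% unthinned and 0% and 0.323% thinned (median depth 1578 and 1453 counts).

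**Figure D2:**
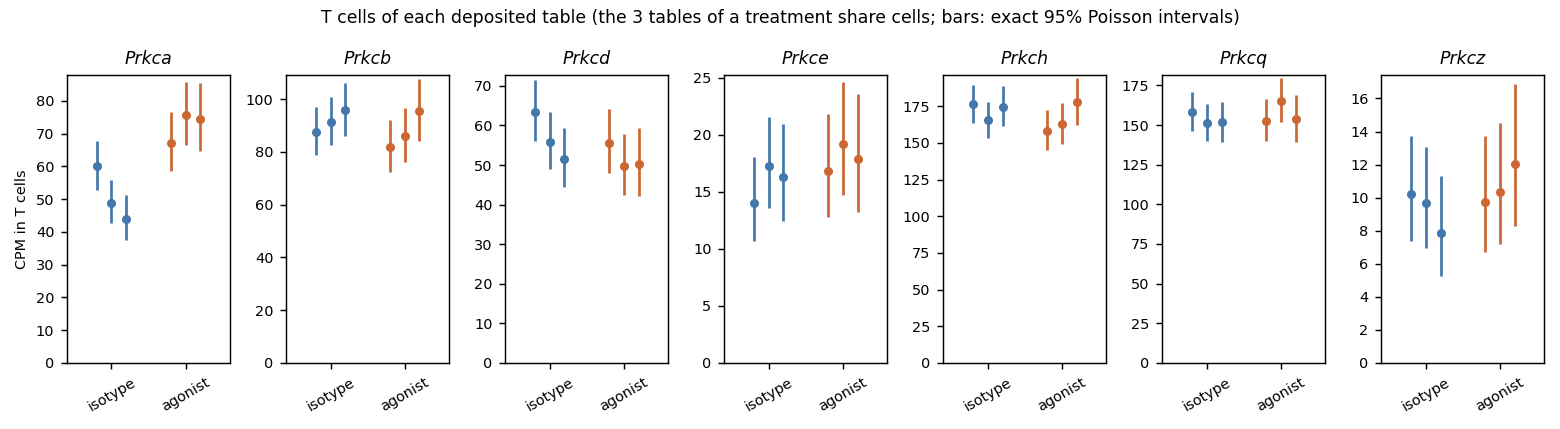
Level of each protein kinase C gene in the T cells of each deposited table, in CPM from 0, with exact 95% Poisson intervals; the 3 points of a treatment share cells. The 3 agonist points of Prkca (67.1 to 75.6 CPM) lie above the 3 isotype points (44 to 60 CPM), and the points of the other six genes overlap between treatments.

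The other six members gave ratios in T cells whose intervals held 0. Prkcb was at 90.7 CPM with isotype and 90.1 CPM with agonist, a log2 ratio of -0.01 (-0.17 to 0.15). Prkcd was at 54.7 and 54.8 CPM (0.00, -0.20 to 0.20). Prkch was at 167 and 166 CPM (-0.00, -0.12 to 0.11).
Prkcq was at 152 and 158 CPM (0.06, -0.06 to 0.18), so these 4 members were bounded within 0.20 of no difference on the log2 scale at this counting depth. For Prkce (15.7 and 18 CPM, log2 ratio 0.20, -0.18 to 0.57) and Prkcz (9.64 and 10.4 CPM, 0.11, -0.37 to 0.60), the intervals did not exclude a difference as large as that of Prkca. The Prkce ratio turned to -0.39 with cells thinned to 1000 counts, and its interval held 0.

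The T cell clusters are parts of the value that chose the family, and their Prkca ratios are descriptions from which nothing is read. In naive CD4 T cells, which have not met antigen, Prkca was at 52 CPM (38.9 to 68) with isotype and 92.4 CPM (75.8 to 112) with agonist. Its log2 ratio there was 0.83 (0.34 to 1.33), where 13.5% of genes lay past 0.5 in either direction and 7.42% had an interval above 0. The share of naive CD4 T cells with a count of Prkca was 10.1% with isotype and 16.2% with agonist, and 4.21% and 8.67% with cells thinned to 1000 counts. The ratio was 0.49 in the CD8 T cell cluster led by Plac8, 0.38 in effector-memory CD4 T cells, 0.33 in naive CD8 T cells and 0.30 in dividing T cells, and each of these intervals held 0. With the 11 clusters at the same weights in both libraries the T cell ratio was 0.52, against 0.54 at their measured shares. Whether the clusters differ from each other in this ratio was not tested.

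**Figure D3:**
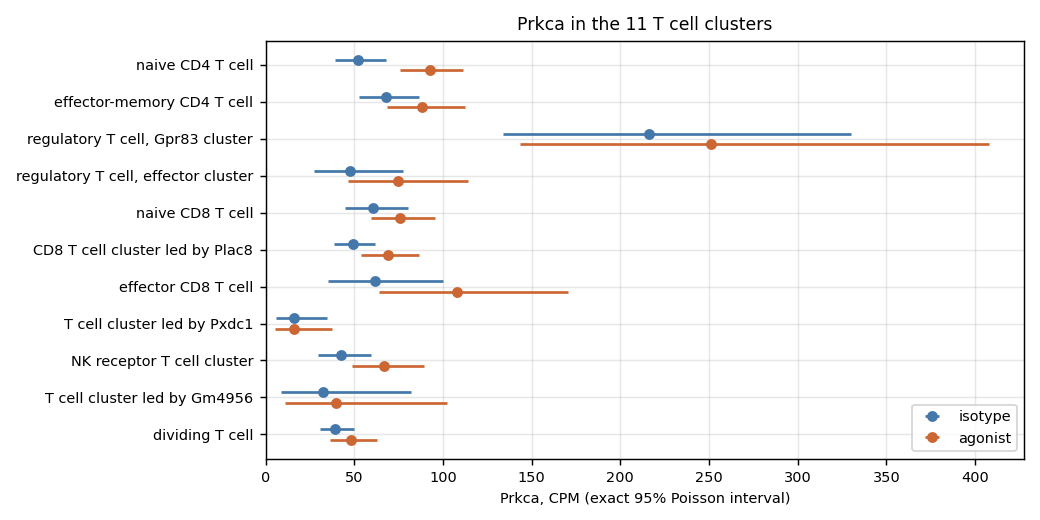
Prkca in the 11 T cell clusters, in CPM from 0 with exact 95% Poisson intervals, isotype in blue and agonist in orange. The intervals are apart in naive CD4 T cells (52 against 92.4 CPM) and overlap in the other 10 clusters, and the Gpr83 regulatory T cluster is highest in both libraries.

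Outside the T cells, Prkca had intervals above 0 in B and NK cells. In B cells it was at 30.4 CPM with isotype and 43.2 CPM with agonist, a log2 ratio of 0.51 (0.15 to 0.87), where 10.0% of 9427 genes lay past 0.5 and 7.75% had an interval above 0. In NK cells it was at 37 and 48.4 CPM, a ratio of 0.39 (0.08 to 0.69), where 10.2% of genes lay past 0.5 and 8.94% had an interval above 0. Without the first agonist table the NK cell ratio was 0.25 and without the first isotype table it was 0.32, and both intervals then held 0. Plasmacytoid dendritic cells, with one of the highest levels, had a ratio of -0.14 (-0.49 to 0.21). No ratio was taken in neutrophils (2.34 and 4.32 CPM, 9 and 18 counts) and classical monocytes (1.64 and 4.05 CPM, 4 and 10 counts), where Prkca was close to 0.

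Markers of other cells in the T cells were also compared between libraries. The 12 B cell markers summed to 20.3 CPM with isotype and 23.3 CPM with agonist, and the 8 plasmacytoid dendritic cell markers to 259 and 242 CPM, most of it Bst2 (198 and 175 CPM), which T cells also transcribe. The 13 neutrophil markers summed to 155 and 209 CPM, with 6 of the 7 that had at least 50 counts higher with agonist, and Ly6g at 0 with isotype and Mmp8 at 0 with agonist. The 12 interstitial macrophage markers summed to 47 and 57 CPM (4 of 6 higher), the 11 NK cell markers to 735 and 795 CPM (8 of 10 higher) and the 8 classical monocyte markers to 1222 and 946 CPM (4 of 5 lower), of which Ly6c2, also a CD8 T cell marker, was 973 and 725 CPM. Neutrophils held Prkca at 2.34 CPM with isotype and 4.32 CPM with agonist. The part of RNA from neutrophils or other cells in the Prkca ratio was not tested.

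Prkcd was lower with agonist in most myeloid classes. It had an interval below 0 in 8 of the 21 classes, lymphoid ones included, with at least 50 cells per library and 50 counts. None of the 21 had an interval above 0. These classes come from the same libraries and are not independent samples. Alveolar macrophages, with 39 and 33 cells too few for a ratio, went the other way, at 317 CPM (258 to 384) with isotype and 483 CPM (402 to 576) with agonist. In classical monocytes it was at 737 CPM with isotype and 578 CPM with agonist, a log2 ratio of -0.35 (-0.45 to -0.25), where 10.7% of genes had an interval below 0. In nonclassical monocytes it was 777 and 644 CPM (-0.27, -0.37 to -0.17), against 11.4% of genes, and in neutrophils 460 and 405 CPM (-0.19, -0.28 to -0.09), against 13.5%.
The Prkcd ratio varied over the macrophage clusters, but their intervals overlapped and whether the clusters differ was not tested. Interstitial macrophages had a ratio of -0.18 (10.0% of genes below 0), the Cxcl10 cluster -0.20 (8.31%) and the monocyte and macrophage cluster led by Ace -0.22 (7.29%), whereas the Gpnmb cluster was at 0.02 and the Mmp12 cluster at -0.05 with intervals that held 0. Conventional dendritic cells type 2, which present antigen to CD4 T cells, had a ratio of -0.37 (9.11% of genes below 0), but it was -0.06 with doublets kept, with an interval that held 0, -0.17 with finer clusters and -0.23 without the second isotype table. B cells had -0.21 (8.13% of genes below 0), and the interval held 0 without the first table of either treatment, at -0.14 (isotype) and -0.15 (agonist). The ratio for interstitial macrophages was -0.10 without the second agonist table, with an interval that held 0, and -0.27 with doublets kept. That for the Ace cluster was -0.20 without the last isotype table and -0.19 without the last agonist table, where the intervals also held 0.

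**Figure D4:**
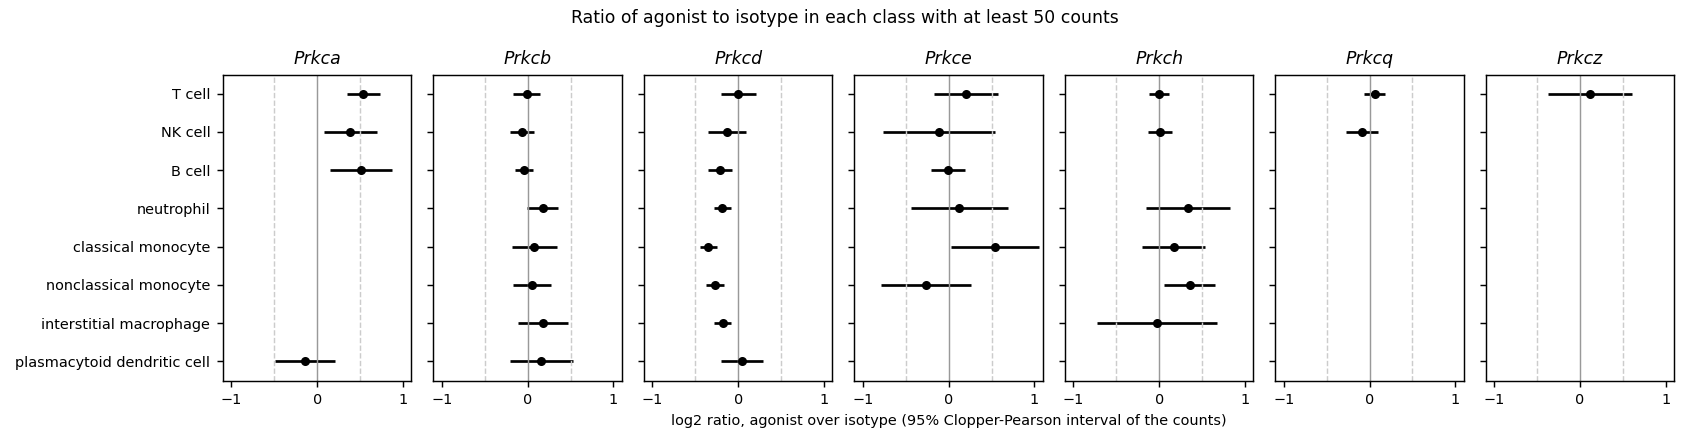
Log2 ratio of agonist over isotype for each protein kinase C gene in 8 classes where the gene had at least 50 counts over both libraries, with 95% Clopper-Pearson intervals of the counts; dashed lines mark 0.5 in either direction. Prkca lies right of 0 in T, NK and B cells and Prkcd lies left of 0 in neutrophils, both monocyte classes, B cells and interstitial macrophages.

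Of the 84 ratios over all members and classes, 11 lay past 0.5 in either direction. By class, 10.0% (B cells) to 27.2% (effector CD8 T cells) of all genes lay past 0.5. Apart from Prkca, in B cells, naive CD4 T cells and the T cell cluster with NK receptors (0.65, -0.02 to 1.33), the 11 ratios were spread over members. In that cluster, where 16.5% of genes lay past 0.5, Prkch was at 258 CPM with isotype and 169 CPM with agonist (-0.61, -0.95 to -0.28) and Prkcd had a ratio of -0.54 (-1.23 to 0.12). In the cluster led by Ace (19.1% of genes), Prkcb had a ratio of 0.78 (0.11 to 1.48) and Prkch one of -1.05 (-1.91 to -0.22). Their counts there were 95 and 53 in all. Prkce had a ratio of 0.54 in classical monocytes (13.1% of genes), Prkcb one of 0.56 in conventional dendritic cells type 2 (17.2%), Prkcd one of -0.60 in naive CD8 T cells (14.5%) and Prkcq one of -0.57 in effector CD8 T cells (27.2%). The interval of Prkce in classical monocytes (0.03 to 1.05) lay above 0. Those of Prkcb in conventional dendritic cells type 2 (-0.19 to 1.33), Prkcd in naive CD8 T cells (-1.27 to 0.05) and Prkcq in effector CD8 T cells (-1.34 to 0.17) held 0. With 1 table left out, the ratio of Prkcd in naive CD8 T cells lay between -0.91 (without the first agonist table) and -0.29 (without the second). That of Prkcb in conventional dendritic cells type 2 lay between 0.37 (without the second agonist table) and 0.92 (without the last isotype table).
The differences in the Ace cluster and of Prkce in monocytes rest on few counts. Without the first isotype table the intervals of Prkcb (0.50) and Prkch (-0.83) in the Ace cluster held 0, as did that of Prkcb without the second isotype table (0.64) or the second agonist table (0.66). The Prkce interval held 0 with finer clusters (0.49), with doublets kept (0.41), without the first isotype table (0.42) and without the first (0.47), second (0.51) or last (0.45) agonist table.
Below 0.5 in size, Prkcb had a ratio of -0.45 (-0.85 to -0.06) in naive CD4 T cells, where 6.15% of genes had an interval below 0. It was -0.38 without the last isotype table, -0.41 without the first agonist table and -0.37 without the last one, each with an interval that held 0. Prkch had a ratio of 0.36 (0.06 to 0.66) in nonclassical monocytes, where 9.62% of genes had an interval above 0, and 0.21 with doublets kept or 0.26 without the first agonist table, where the interval held 0.

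Of 102 listed genes that make diacylglycerol, consume it, act above or below protein kinase C or are its substrates, 96 were columns of the tables and 78 had at least 50 counts in T cells. Their median log2 ratio was 0.01, against -0.02 for all genes, and 3 lay above 0.5 and 2 below -0.5, where 6.35% and 4.19% of all genes did. Of the 78, 6 had an interval above 0 and 10 one below 0, where 11.1% and 11% of all genes did.
By group, 1 of 6 genes of the phospholipase C family, listed for making diacylglycerol though not each shown to do so, lay past 0.5. It was Plcb3, a phospholipase C, at 23 and 30 counts (0.68, -0.16 to 1.53). None of 7 diacylglycerol kinases and lipid phosphatases did. Above the family, 1 of 9 genes did, the kinase Syk at 0.53 (-0.12 to 1.18).
None of the 9 other diacylglycerol-binding and atypical relatives lay past 0.5. Of 15 genes for priming, anchoring and shutting off the kinases, Phlpp2, a phosphatase that removes a priming phosphate, was at -0.65 (-1.25 to -0.07), from 75 and 39 counts. None of 17 genes of the arm that leads to NF-κB lay past 0.5.
Of 15 substrates, Coro1b, an actin regulator, was at 0.59 (0.29 to 0.88), but its values were often fractions of a count, with 427 isotype cells above 0 for a sum of 177. Nrgn, neurogranin, a calmodulin-binding substrate, was at 13.3 CPM with isotype and 1.82 CPM with agonist, from 108 counts in 36 cells and 12 counts in 11 cells. Its log2 ratio was -2.88 (-3.88 to -2.01) and -2.89 without the top cell of each library, and 42 of the isotype counts fell in the T cell cluster with NK receptors. By table Nrgn had 35, 42 and 62 counts with isotype and 8, 4 and 5 with agonist. The 3 platelet markers, of another cell type known to hold neurogranin, summed to 0.538 CPM with isotype and 1.25 CPM with agonist in the same T cells, with Pf4 at 0 with isotype, and their part in the Nrgn ratio was not tested.

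**Figure D5:**
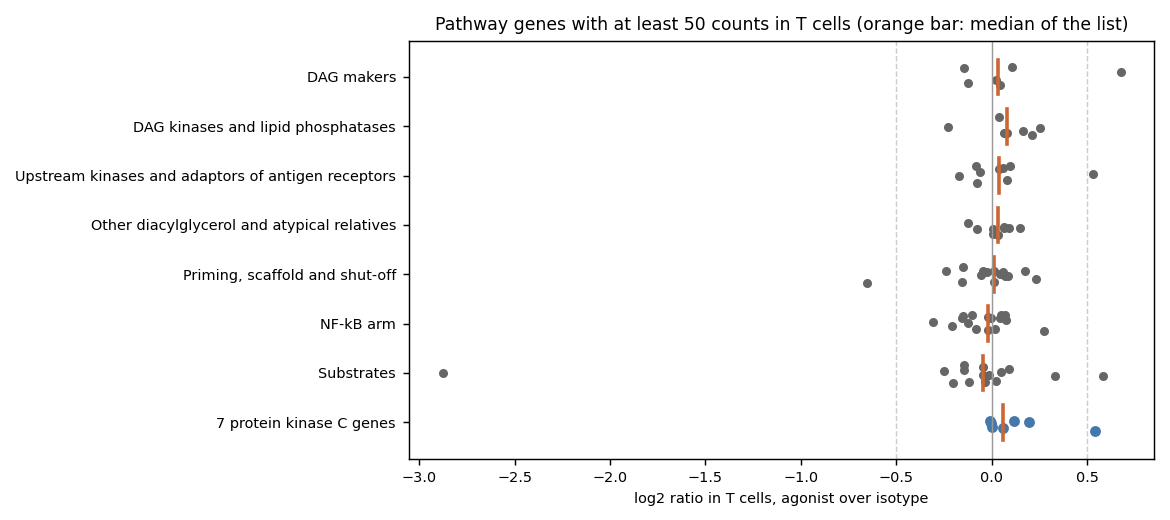
Log2 ratio of agonist over isotype in T cells for 78 pathway genes in 7 lists and, in blue, the 7 protein kinase C genes; each point is a gene, the orange bar is the median and dashed lines mark 0.5 in either direction. The medians lie between -0.05 and 0.08, and Nrgn stands alone at -2.88.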

How the data were processed

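The deposited tables hold expected counts per gene and cell, estimated counts that need not be whole, made by the authors without visible normalization. Columns for total count, expressed genes and percent of mitochondrial and ribosomal counts stand beside them, per the file headers. The submitters' processing notes name Partek and mm10. How reads were aligned and counted is not given in the sources used here. Members and lists were chosen with earlier results of these data known.

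Each barcode was kept once per treatment, by its largest total, which left 12448 barcodes for isotype and 13728 for agonist. Of these, 11106 and 12216 passed the authors' filter. Scrublet, run in scanpy, marked 807 (7.27%) and 944 (7.73%) as doublets (threshold 0.25), which were removed, and the cells kept had a median of 2535 and 2227.5 counts by the authors' totals. Cells were clustered (scanpy 1.11.5, 2000 variable genes, 30 components, Leiden resolution 1) without 103 family and pathway genes, and T cells and myeloid cells were clustered again. Naming clusters and leaving out mixed ones was done after their leading genes were seen. Counts were summed per class, rounded, and scaled with TMM factors (edgeR 4.0.16, factors only). Classes needed 50 cells per library, and genes 50 counts, for a ratio. Ratios have exact Clopper-Pearson intervals and levels have exact Poisson ones. The ratio intervals were run on simulated Poisson counts, the form they assume, so that run could not show how they hold in these cells. The level intervals were not run on simulated counts. Intervals cover counting error only. Library and treatment cannot be told apart. All 7 members were named, pathway genes where their T cell ratio passed 0.5, and the 3 most alike genes with a mean of at least 20 CPM, of which some are not reported here. Alternatives were other scalings (plain totals, DESeq2 1.42.0 size factors), cell definitions, doublets kept, thinned cells and each table left out. No filter on mitochondrial percent was added.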

Additional observations from a re-analysis of the deposited data

How the results depend on the processing

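No paired analysis was possible because the tables of a treatment share cells and no test was made. Of 119 recomputed T cell ratios, 117 stayed within the interval of the reported value and none turned a called direction. The exceptions were Prkce with cells thinned to 1000 counts, at -0.39, and the Prkcq log2 ratio in T cells taken by the authors' Cd3e flag, at -0.0801, and the cause was not tested. With all tables kept, the Prkca ratio ran from 0.45 with that flag to 0.64 with thinned cells. It was 0.51 over all barcodes clustered without the authors' filter, an alternative chosen after seeing the data. With 1 table left out, the T cell ratio lay between 0.48 and 0.67 for Prkca, -0.05 and 0.03 for Prkcb, -0.13 and 0.04 for Prkcd, 0.14 and 0.30 for Prkce, -0.06 and 0.03 for Prkch, 0.04 and 0.09 for Prkcq, and 0.00 and 0.32 for Prkcz. The percent of genes past 0.5 in T cells was 10.5%, 34.2% with no filter on low counts and 5.78% with at least 200 counts, since fewer counts spread ratios wider. Of 672 ratios in other classes, 668 stayed within the interval of the reported value. The 4 that moved came with finer clusters (1 of 36) or doublets kept (3 of 36). Here and in T cells, other scalings and runs with 1 table left out reuse the same class labels and mostly the same cells. Such reruns could therefore move little. A count over all barcodes by the same clusters was not run, since only filtered cells had clusters. Depth limits Prkcz and Prkce most.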
